A study of Mus musculus with 32 samples.

Results

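The sample analysed here is 1 population sorted from mouse bone marrow by flow cytometry as Lin-Sca-1+cKit-, and is called the Sca-1+ cKit- sample. It was set beside the 3 stem-enriched samples, which carry both proteins and no lineage markers per the instrument records, so that the sort gates differ in cKit among Sca-1-positive cells. These are 4 of the 16 RNA samples of the study and 8 of its 32 arrays. The other 12 samples came from Sca-1-negative cKit-positive cells, Sca-1-negative cKit-negative cells, lineage-depleted marrow and total marrow, each with 3 samples. No treatment, strain, genotype or age was used to define the groups. The samples were grouped by their sort labels. The samples, lists and list members were chosen with earlier results of these data known. The Sca-1+ cKit- sample was prepared from about 160000 cells at an estimated purity of 98%, and the stem-enriched samples from 76000 to 290000 cells at a purity above 90%. RNA was at 10 ng/µl on both sides. The labels do not say whether samples came from separate animals, or whether animals were pooled.

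Marrow depleted of cells with mature lineage markers is commonly sorted by the surface proteins Sca-1 and cKit to obtain its immature cells. Cells that carry both hold the hematopoietic stem cells and multipotent progenitors, and cKit is the receptor for stem cell factor. Sca-1 without cKit is a looser gate: Sca-1 is also carried by many lymphocytes, by plasmacytoid dendritic cells and by some innate lymphoid and stromal cells. The transcript of Sca-1 was not analysed here.

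Each RNA was hybridised to Affymetrix mouse arrays of chip types A and B, and values are log2 of the signal. A signal under the 25th percentile of its chip type was set to that percentile, the floor, which is 7.34 on chip type A and 8.07 on chip type B. With 1 sample on one side there is no replicate check of that sample and no p-value. A gene was counted as above or below where the Sca-1+ cKit- sample lay at least 1 log2 unit (2-fold) above the highest or below the lowest of the 3 stem-enriched samples. Those 3 samples spanned a median of 0.58 log2 units per gene, and 1.62 at the 90th percentile. The rule asks for 1 unit outside their range, which for the genes of widest spread is less than the spread itself. The median array signal was 512.6 for the Sca-1+ cKit- sample and 562.2 to 578.9 for the stem-enriched samples on chip type A, and 876.3 against 823.5 to 917.1 on chip type B. The log2 ratio of the 3′ to the 5′ Gapdh control on chip type A, a sign of RNA quality and amplification, was 3.40 in the Sca-1+ cKit- sample and 3.84 to 4.17 in the stem-enriched samples, and its part in the results was not tested. The Sca-1+ cKit- arrays shared chip lot and scan day with the 3 total marrow samples and with none of the stem-enriched samples, so the population and the run of the arrays (lot and scan day) cannot be told apart here.

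Of 12665 genes measured, 513 lay above the stem-enriched range (4.05%) and 623 lay below it (4.92%), and the remaining 11529 were within 1 unit of it. At a distance of at least 2 log2 units there were 142 genes above and 106 below. A gene is given by its brightest measured probe set, so its fold is that of 1 probe set, and the number of its probe sets that lay outside the range is given beside it. A gene was measured where the Sca-1+ cKit- signal or the median stem-enriched signal passed the median of its chip type. In all, 981 genes passed that filter only through the Sca-1+ cKit- sample, and 247 of these lay above the range. Another 1423 passed only through the stem-enriched samples, and 396 of these lay below it. For such genes the filter itself favoured that direction, though it did not force a distance of 1 unit. For that reason counts of gene list members are given with no filter, over every member on the chips. Without the filter 3.26% of 18193 genes lay above the range and 3.84% lay below it. Every count of list or family members below is to be read beside these shares. The lists were chosen with earlier results of these data known, so this comparison is descriptive and is not an independent test. Just past the threshold above the range was Lpgat1 at 1.001, and just short of it Sp100 at 0.999. Below the range the nearest were Syce2 at -1.002 and Gsdma at -0.997. The median difference between the Sca-1+ cKit- sample and the stem-enriched mean was -0.04 over all measured genes.

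**Figure D1:**
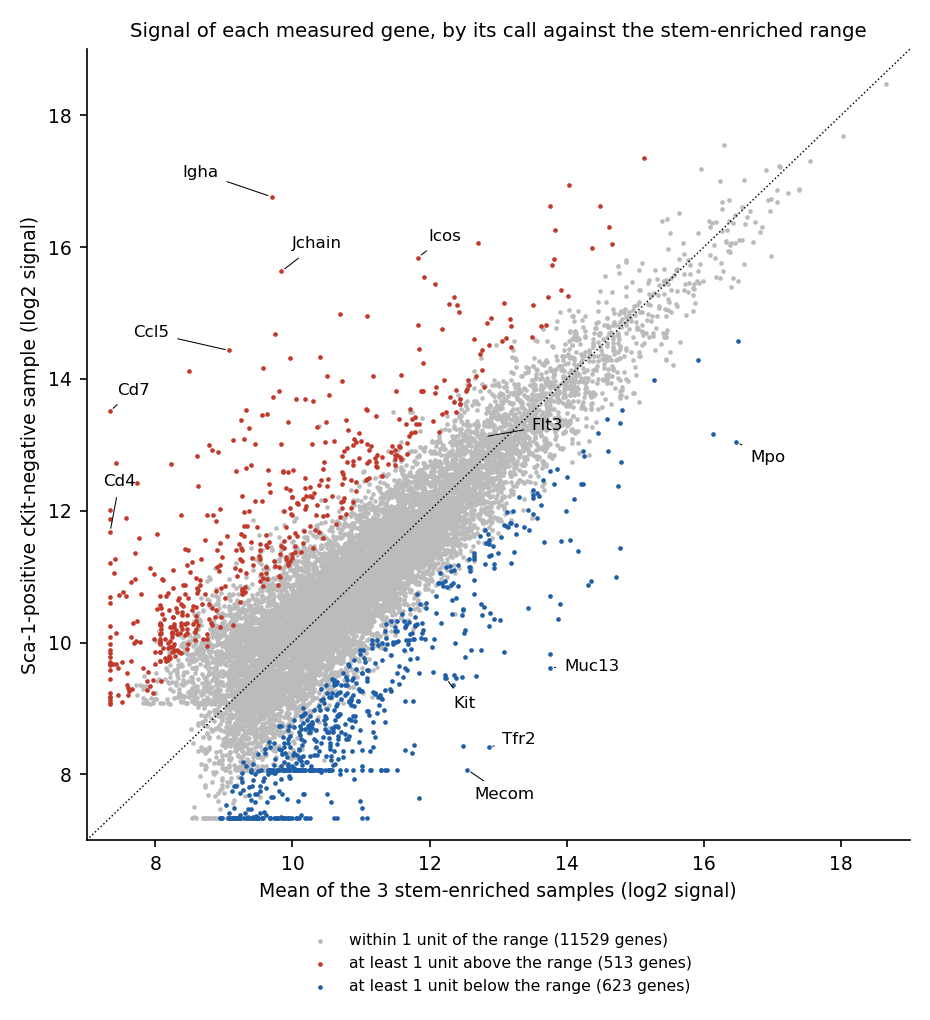
Each point is 1 measured gene: log2 signal in the Sca-1+ cKit- sample on the vertical axis, mean log2 signal of the 3 stem-enriched samples on the horizontal axis. The 513 genes above the range (red) and the 623 below it (blue) flank the 11529 within 1 unit (grey); the rows of points at 7.34 and 8.07 lie at the floors of the chip types, and the dotted line marks equal values.

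The gene of the sorted protein followed the gates. Kit measured 9.46 in the Sca-1+ cKit- sample, against 12.13, 12.30 and 12.28 in the stem-enriched samples. It was 6.87-fold lower in the Sca-1+ cKit- sample, and both of its probe sets lay below the range. The Sca-1-negative cKit-negative samples, which share the cKit gate, averaged 9.79 ± 0.46 (SD, n = 3). The window around the Kit start site is shown because Kit separates the gates, and that of Muc13, a transmembrane mucin, because it lay farther below the range than any other gene of the stem and progenitor list apart from Mecom. Both are on the GRCm38.p6 build, from 250 bases before to 50 after a RefSeq start site, on the plus strand, at chr5:75574737-75575036 and chr16:33793787-33794086. Capitals mark 3 motifs found on either strand. The E-box was searched as CANCTG, which is narrower than its general form CANNTG, so other E-boxes are not marked or counted. The motif of GATA factors was searched as GATAA. That of RUNX factors was searched as TGTGGT. No capitals are shared between motifs. The Kit window holds none of these 3 forms and the Muc13 window holds 1 CANCTG E-box. Of 32851 such windows, 51.4% hold the CANCTG E-box, 25.4% the GATA motif and 16.8% the RUNX motif. A match is no more than a description of the sequence.
Kit: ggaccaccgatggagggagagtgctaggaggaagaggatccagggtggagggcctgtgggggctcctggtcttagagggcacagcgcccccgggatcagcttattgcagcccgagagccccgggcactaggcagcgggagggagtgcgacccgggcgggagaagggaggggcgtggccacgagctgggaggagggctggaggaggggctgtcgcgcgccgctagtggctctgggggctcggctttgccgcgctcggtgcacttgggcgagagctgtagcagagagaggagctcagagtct
Muc13: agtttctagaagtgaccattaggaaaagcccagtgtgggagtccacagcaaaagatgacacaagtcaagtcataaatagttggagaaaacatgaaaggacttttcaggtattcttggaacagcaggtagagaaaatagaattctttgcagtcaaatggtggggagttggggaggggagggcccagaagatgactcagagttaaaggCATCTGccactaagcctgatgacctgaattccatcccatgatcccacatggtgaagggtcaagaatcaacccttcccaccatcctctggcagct

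Genes associated with stem cells and multipotent progenitors lay low in the Sca-1+ cKit- sample. Of the 41 list members on the chips 24 lay below the range and none above it, against 3.84% and 3.26% of all genes, and the median difference over the 41 was -1.52. Mecom, a transcription factor needed for stem cell maintenance, was at the floor of 8.07 in the Sca-1+ cKit- sample and at 12.06, 12.81 and 12.79 in the stem-enriched samples. That is at least 22.4-fold lower, with 1 of its 2 probe sets below the range. Muc13 measured 9.62 in the Sca-1+ cKit- sample, against 13.60, 14.06 and 13.63 in the stem-enriched samples, 17.7-fold lower, with both probe sets below the range. Both genes separated the 2 sides by more than the spread of the stem-enriched samples. Angpt1, a ligand of the Tie2 receptor, measured 10.94 in the Sca-1+ cKit- sample, against 14.05, 14.72 and 14.31 in the stem-enriched samples. Procr, the protein C receptor used as the stem cell marker EPCR, was at the floor of 7.34 in the Sca-1+ cKit- sample, against 9.81, 11.02 and 10.96 in the stem-enriched samples. In each of these genes the Sca-1+ cKit- sample lay well under all 3 stem-enriched samples, which spread most for Procr, over 1.21 units.

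The same held for surface and signalling genes of the list. Cd34, a sialomucin of progenitors, measured 10.70 in the Sca-1+ cKit- sample, against 13.28, 14.00 and 14.01 in the stem-enriched samples. Adgrg1 and Adgrl4, adhesion G protein-coupled receptors, were 7.61-fold and 11.5-fold lower in the Sca-1+ cKit- sample, each with both probe sets below the range. Of the transcription factors, Hlf measured 9.51 in the Sca-1+ cKit- sample, against 11.92, 12.51 and 12.65 in the stem-enriched samples. Erg measured 9.88 in the Sca-1+ cKit- sample, against 12.43, 12.71 and 12.68 in the stem-enriched samples. Tal1, Lmo2, Meis1 and Runx1, which act in the core network of stem and progenitor cells, lay below the range at distances of -1.46 to -1.27 units, although for Runx1 this held for 1 of 6 probe sets and for Meis1 for 2 of 3. Gata2, at 11.31 in the Sca-1+ cKit- sample against 12.32, 12.36 and 12.22 in the stem-enriched samples, stayed just within 1 unit of the range.

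Several genes of early progenitors lay inside the stem-enriched range. Flt3, a receptor of multipotent and lymphoid progenitors that dendritic cells also carry, measured 13.12 in the Sca-1+ cKit- sample, against 12.48, 12.65 and 13.23 in the stem-enriched samples. By contrast it averaged 10.79 in the Sca-1-negative cKit-negative samples and 9.61 in total marrow. Sox4, a transcription factor of early lymphoid cells, measured 12.37 in the Sca-1+ cKit- sample, against 12.26, 12.63 and 12.64 in the stem-enriched samples, with 1 of its 6 probe sets below the range. Plac8, Bmi1, Fli1, Mycn and Slamf1 were likewise inside it. Hoxa9, a homeobox factor of progenitors, measured 11.53 in the Sca-1+ cKit- sample, against 13.59, 13.75 and 13.66 in the stem-enriched samples, and 1 of its 2 probe sets lay below the range. Hoxb2 lay below the range at -1.90 units, and Pknox1, a TALE cofactor, lay 1.68 units above. Over the 17 Hox and TALE genes on the chips the median difference was 0.00, with 1 above and 3 below. Some of these, such as Hoxa7 and Hoxb5, were at the floor of 7.34 on both sides and so gave no difference. Over the 11 that passed the filter the median difference was -0.73.

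**Figure D2:**
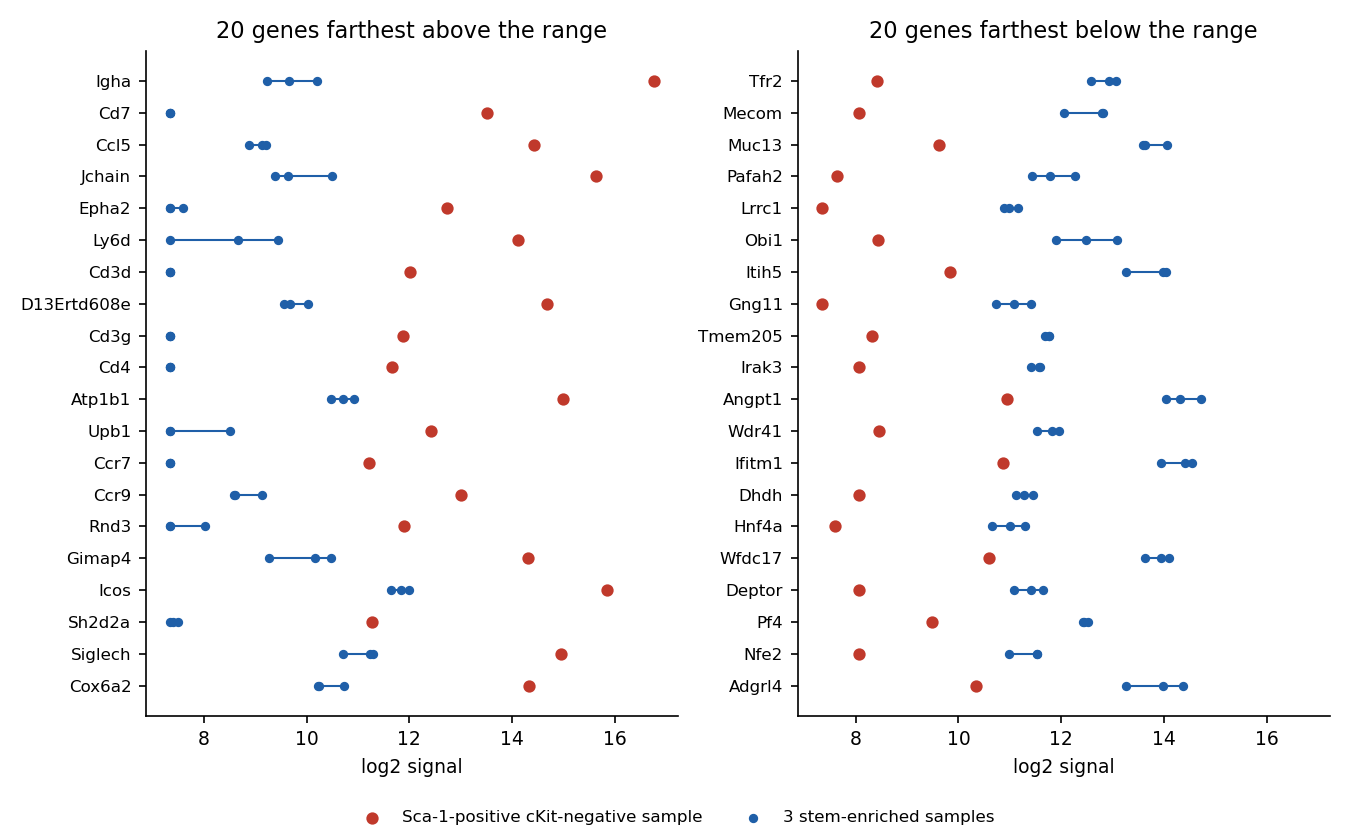
log2 signal of 20 genes at the top (left panel) and 20 at the bottom (right panel) by distance from the stem-enriched range, in the Sca-1+ cKit- sample (red) and in each of the 3 stem-enriched samples (blue, joined by their range). Igha is the farthest above, at 16.76 against at most 10.20, and Tfr2 the farthest below, at 8.41 against at least 12.59; several blue points of the left panel lie at the floor of 7.34.

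Among the other genes farthest below the range, Tfr2, a transferrin receptor, measured 8.41 in the Sca-1+ cKit- sample, against 12.59, 13.06 and 12.93 in the stem-enriched samples, 21.9-fold lower, with both probe sets below the range. Hnf4a, a nuclear receptor best known in liver, measured 7.60 in the Sca-1+ cKit- sample, against 10.66, 11.30 and 11.01 in the stem-enriched samples, also with both probe sets below the range. Itih5, of the inter-alpha-trypsin inhibitor family, was 15.3-fold lower, with all 3 probe sets below the range. Ifitm1, an interferon-induced membrane protein, measured 10.87 in the Sca-1+ cKit- sample, against 14.42, 14.55 and 13.95 in the stem-enriched samples. Of 7 Ifitm genes on the chips, 4 lay below the range, namely Ifitm1, Ifitm2, Ifitm3 and Ifitm5, at distances of -3.08, -2.33, -1.48 and -1.41. The Ifitm family and its members were picked after their values were seen. The interferon response list did not share that direction: 3 of its 36 genes on the chips lay below the range and 1 above, with a median difference of 0.00.

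Granule protein genes of early granulocytes and monocytes were low in the Sca-1+ cKit- sample. Of 15 members 7 lay below the range and none above, with a median difference of -1.52. Mpo, myeloperoxidase, measured 13.04 in the Sca-1+ cKit- sample, against 17.33, 16.24 and 15.84 in the stem-enriched samples, 10.8-fold lower. Prtn3, proteinase 3, measured 11.43 in the Sca-1+ cKit- sample, against 15.88, 14.42 and 14.04 in the stem-enriched samples. Ctsg, cathepsin G, measured 11.00 in the Sca-1+ cKit- sample, against 16.35, 14.24 and 13.56 in the stem-enriched samples. In all 3 genes stem-enriched sample 1 was the highest, so these stem-enriched values themselves spread over 1.49 to 2.79 log2 units. Serpinb1a, an inhibitor of neutrophil proteases, was 9.41-fold lower, with both probe sets below the range. Its signal, like that of Ctsg, lay at least 1 unit under all 15 other samples of the study.

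Genes of the megakaryocyte line lay low as well, 7 of 24 on the chips below the range and none above. Pf4, platelet factor 4, measured 9.48 in the Sca-1+ cKit- sample, against 12.53, 12.42 and 12.45 in the stem-enriched samples, 7.94-fold lower. Gng11, a G protein gamma subunit, was at the floor of 7.34 in the Sca-1+ cKit- sample, against 10.74, 11.08 and 11.41 in the stem-enriched samples. Nfe2, a transcription factor of megakaryocytes and red cell precursors, measured 8.06 in the Sca-1+ cKit- sample, against 11.54, 11.53 and 10.98 in the stem-enriched samples. Its distance from the lowest of all 15 other samples was -2.92 units, and no gene lay farther below all of them.

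T cell genes lay high in the Sca-1+ cKit- sample. Of 22 list members on the chips 16 lay above the range and none below, against 3.26% of all genes above, and the median difference was 2.40. The CD3 chains, which carry the signal of the T cell receptor, were measured by 1 probe set each. Cd3d measured 12.01 in the Sca-1+ cKit- sample and was at the floor of 7.34 in all 3 stem-enriched samples, at least 25.4-fold higher. Cd3g measured 11.88 in the Sca-1+ cKit- sample and was at the same floor in all 3 stem-enriched samples, at least 23.2-fold higher. Cd3e measured 11.59 in the Sca-1+ cKit- sample, against 8.48, 7.45 and 7.36 in the stem-enriched samples, 14.2-fold higher. All 3 chains therefore sat far from the stem-enriched samples. In the Sca-1-negative cKit-negative samples their means were lower than in the Sca-1+ cKit- sample but above the stem-enriched ones, at 10.66 for Cd3d, 10.61 for Cd3g and 10.17 for Cd3e. Cd3d and Cd3g are neighbours on chromosome 9 that run in opposite directions, and the windows around their start sites are shown because both genes had the same pattern. The windows lie 854 bases apart, at chr9:44981536-44981835 on the plus strand for Cd3d and chr9:44980382-44980681 on the minus strand for Cd3g. They hold 1 and 3 matches to the CANCTG E-box, with 1 GATA motif in the Cd3g window.
Cd3d: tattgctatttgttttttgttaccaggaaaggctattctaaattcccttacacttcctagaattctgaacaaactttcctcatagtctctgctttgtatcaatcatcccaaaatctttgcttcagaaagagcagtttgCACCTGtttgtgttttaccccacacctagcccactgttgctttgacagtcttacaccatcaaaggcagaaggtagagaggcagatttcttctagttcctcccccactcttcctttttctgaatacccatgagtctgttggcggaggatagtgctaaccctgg
Cd3g: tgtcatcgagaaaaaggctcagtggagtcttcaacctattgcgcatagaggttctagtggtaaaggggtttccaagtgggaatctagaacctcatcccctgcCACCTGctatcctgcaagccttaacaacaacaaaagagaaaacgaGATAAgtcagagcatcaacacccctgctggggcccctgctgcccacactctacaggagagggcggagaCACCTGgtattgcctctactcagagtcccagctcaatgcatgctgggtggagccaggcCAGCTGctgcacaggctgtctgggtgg

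Cd4, the coreceptor for MHC class II, set this sample apart from the other marrow populations. It measured 11.67 in the Sca-1+ cKit- sample and was at the floor of 7.34 in all 3 stem-enriched samples, at least 20.1-fold higher. The highest of the 15 other samples reached 8.24, and no gene of the study lay farther above all 15 than Cd4, at a distance of 3.43 units. Cd8b1, the beta chain of the CD8 coreceptor, measured 10.29 in the Sca-1+ cKit- sample, against 8.24, 7.47 and 7.34 in the stem-enriched samples. Bcl11b, a factor of T lineage commitment, measured 13.37 in the Sca-1+ cKit- sample, against 8.68, 8.23 and 10.85 in the stem-enriched samples, with 2 of 4 probe sets above the range. Cd28, a costimulatory receptor, and Ctla4, an inhibitory receptor that binds the same ligands, lay 1.63 and 1.56 units above. Of 9 T cell receptor segments on the chips, counted with no filter, Trgv4, Trgv1 and Trav9d-3 lay above the range at 2.55, 1.99 and 3.02 units, and 6 segments of the alpha and beta chains lay within 1 unit. These segments were picked after their values were seen, and probes for such near-identical genes can share transcripts, so their identity is uncertain.

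Natural killer and cytotoxic genes showed the same direction. Of 23 members on the chips 15 lay above the range and none below, with a median difference of 2.47. Cd7, a surface protein of T and natural killer cells, measured 13.51 in the Sca-1+ cKit- sample and was at the floor of 7.34 in all 3 stem-enriched samples, at least 71.8-fold higher. Ccl5, a chemokine stored by cytotoxic cells, measured 14.43 in the Sca-1+ cKit- sample, against 9.21, 8.88 and 9.14 in the stem-enriched samples, 40.9-fold higher. Ctsw, a protease of cytotoxic cells, measured 12.71 in the Sca-1+ cKit- sample, against 8.07, 7.44 and 9.19 in the stem-enriched samples. The receptors Klre1 and Klrd1, the cytokine Ifng and the transcription factors Eomes and Tbx21 lay 1.82 to 3.15 units above the range. Granzymes were also high, with Gzmb 2.55 and Gzma 2.29 units above. Ncr1, the receptor NKp46 that defines natural killer cells, did not pass the filter on either side and did not separate them, at 8.71 in the Sca-1+ cKit- sample and 8.36, 8.42 and 8.87 in the stem-enriched samples. In bulk RNA more cells of a type and more RNA per cell cannot be told apart, here and in every list.

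Genes that group 2 innate lymphoid cells and type 2 lymphocytes use were above the range for 12 of 25 members on the chips and below it for none, with a median difference of 0.82. Icos, a costimulatory receptor, measured 15.84 in the Sca-1+ cKit- sample, against 11.83, 11.65 and 12.00 in the stem-enriched samples, 16.2-fold higher, with all 3 probe sets above the range. Il7r, the interleukin 7 receptor alpha chain, measured 13.66 in the Sca-1+ cKit- sample, against 10.66, 10.38 and 9.86 in the stem-enriched samples, 10.2-fold higher, with both probe sets above the range. Thy1, a surface glycoprotein of T cells and innate lymphoid cells that stromal cells also carry, measured 13.35 in the Sca-1+ cKit- sample, against 9.44, 9.92 and 10.42 in the stem-enriched samples. These receptors are shared with T cells. Gata3, the transcription factor of T helper 2 and innate lymphoid cells, measured 9.66 in the Sca-1+ cKit- sample and was at the floor of 7.34 in each of the 15 other samples, at least 5.00-fold higher than in the stem-enriched samples. Arg1, arginase 1, measured 9.44 in the Sca-1+ cKit- sample and was at the floor in all 3 stem-enriched samples. Rora, a nuclear receptor of innate lymphoid cells, measured 12.83 in the Sca-1+ cKit- sample, against 10.85, 10.80 and 10.52 in the stem-enriched samples, with 6 of 7 probe sets above the range. Other members did not separate the sides. Il13, Csf2, Il9r and Pparg were at the floor of 7.34 on both sides. Il4 measured 9.05 in the Sca-1+ cKit- sample, against 8.28, 7.34 and 9.34 in the stem-enriched samples. Il5 measured 8.17 against 7.34 in all 3, within 1 unit. For Il2ra 1 probe set measured 7.34 against 8.24, 8.44 and 8.38, and another 8.41 against 7.61, 8.15 and 7.34.

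The list with the largest median difference was that of plasmacytoid dendritic cells, which release type I interferon. Of 19 members on the chips 13 lay above the range and none below, with a median difference of 3.31. Siglech, a surface lectin of these cells in mouse, measured 14.95 in the Sca-1+ cKit- sample, against 11.24, 10.71 and 11.29 in the stem-enriched samples, 14.6-fold higher. Cox6a2, a cytochrome c oxidase subunit, measured 14.33 in the Sca-1+ cKit- sample, against 10.22, 10.25 and 10.72 in the stem-enriched samples, 15.3-fold higher, with both probe sets above the range. Bst2, tetherin, measured 12.64 in the Sca-1+ cKit- sample, against 9.64, 8.82 and 9.55 in the stem-enriched samples. All 3 genes lay at least 1 unit above every one of the 15 other samples. The transcription factors of the lineage were high as well. Irf8 measured 15.55 in the Sca-1+ cKit- sample, against 12.82, 11.60 and 11.34 in the stem-enriched samples, on both probe sets. Spib measured 13.09 in the Sca-1+ cKit- sample, against 9.01, 8.93 and 9.93 in the stem-enriched samples. Tcf4, an E protein that binds E-boxes, measured 13.78 in the Sca-1+ cKit- sample, against 11.89, 12.34 and 12.01 in the stem-enriched samples, with all 5 probe sets above the range. The Siglech start window, at chr7:55767934-55768233 on the plus strand, is shown because Siglech defines the cell type. It holds 2 CANCTG E-boxes and 1 RUNX motif.
Siglech: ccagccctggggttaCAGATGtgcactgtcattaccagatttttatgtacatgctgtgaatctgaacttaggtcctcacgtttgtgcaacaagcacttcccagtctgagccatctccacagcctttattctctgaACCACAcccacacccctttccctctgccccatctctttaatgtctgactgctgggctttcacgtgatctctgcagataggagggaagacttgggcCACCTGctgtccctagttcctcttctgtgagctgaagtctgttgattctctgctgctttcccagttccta

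Ly6d, a surface protein that marks B-committed lymphoid progenitors and some plasmacytoid dendritic cells, measured 14.12 in the Sca-1+ cKit- sample, against 8.67, 7.34 and 9.45 in the stem-enriched samples. With 1 stem-enriched sample at the floor this is at least 49.7-fold higher. Of the 13 chemokine receptors of the homing and adhesion list on the chips 5 lay above the range and none below. Ccr9, a chemokine receptor for homing to gut and thymus, measured 13 in the Sca-1+ cKit- sample, against 8.61, 8.59 and 9.13 in the stem-enriched samples, 18.7-fold higher, with all 3 probe sets above the range. Ccr7, the receptor that guides cells to lymph nodes, measured 11.21 in the Sca-1+ cKit- sample and was at the floor of 7.34 in all 3 stem-enriched samples, at least 14.6-fold higher. Cxcr3, a receptor of activated lymphocytes, measured 12.70 in the Sca-1+ cKit- sample, against 9.35, 9.23 and 9.59 in the stem-enriched samples. These 3 were the farthest above, and Ccr2, Ccr6, Ccr8 and Cxcr5 lay inside the range. Of the whole homing and adhesion list 11 of 36 members on the chips lay above the range. The 3 members below it were Selp, Itga5 and Itga6, which encode P-selectin and the alpha chains of fibronectin and laminin receptors, at -1.16, -1.19 and -1.46 units.

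Immunoglobulin transcripts were far higher in the Sca-1+ cKit- sample. Igha, the constant region of the IgA heavy chain, measured 16.76 in the Sca-1+ cKit- sample, against 9.66, 9.23 and 10.20 in the stem-enriched samples, 133.8-fold higher, with all 3 probe sets above the range. Jchain, which joins IgA and IgM into polymers, measured 15.63 in the Sca-1+ cKit- sample, against 9.39, 9.64 and 10.49 in the stem-enriched samples, 55.4-fold higher. Ighm, the IgM heavy chain, measured 16.94 in the Sca-1+ cKit- sample, against 13.83, 13.60 and 14.66 in the stem-enriched samples, with 7 of 8 probe sets above the range. These 3 genes also lay at least 1 unit above each of the 3 total marrow samples. Of 19 immunoglobulin genes on the chips, counted with no filter, 9 lay above the range, none below and 10 within 1 unit of it. That family was picked after its values were seen, and the variable segments among them are near-identical copies whose identity is uncertain.

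Of 20 plasma cell genes on the chips 7 lay above the range and none below, with a median difference of 1.18. The median level of the list was 10.97 in the Sca-1+ cKit- sample, inside the 10.67 to 11.18 of total marrow. Mzb1, a chaperone of antibody-secreting cells, measured 15.01 in the Sca-1+ cKit- sample, against 12.07, 12.50 and 12.72 in the stem-enriched samples. Xbp1, a factor of the secretory program, lay 1.20 units above the range on 3 of 4 probe sets. Irf4, another of its factors, measured 10.92 in the Sca-1+ cKit- sample, against 7.34, 7.34 and 8.27 in the stem-enriched samples, but only 1 of its 2 probe sets lay above the range, and with no floor the other probe set is the brighter and gives a difference of -1.12. Sdc1, the plasma cell marker syndecan 1, measured 10.62 in the Sca-1+ cKit- sample, against 8.75, 9.64 and 9.60 in the stem-enriched samples, within 1 unit of the range. Fkbp11 and Tnfrsf17 did not pass the filter and did not lie above the range. The brightest Fkbp11 probe set measured 8.27 in the Sca-1+ cKit- sample, against 8.97 to 9.19 in the stem-enriched samples, within 1 unit. Its other probe sets measured 7.65, against 9.01, 8.66 and 8.66, and 7.91, against 8.13, 7.34 and 8.55. Tnfrsf17 was at the floor of 7.34 in the Sca-1+ cKit- sample, against 8.62, 7.34 and 7.34 in the stem-enriched samples.

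B lineage genes lay above the range for 11 of 24 members on the chips and below it for none, with a median difference of 1.23. Vpreb1, part of the surrogate light chain of B cell precursors, measured 13.27 in the Sca-1+ cKit- sample, against 10.37, 9.49 and 11.23 in the stem-enriched samples. Blk, a B cell kinase, measured 11.77 in the Sca-1+ cKit- sample, against 9.34, 9.52 and 9.02 in the stem-enriched samples. Cd79a, a signalling chain of the B cell receptor, was 1.34 units above the range. Pax5, the factor that keeps B cell identity, measured 11.81 in the Sca-1+ cKit- sample, against 11.29, 9.93 and 11.46 in the stem-enriched samples, within 1 unit. Of the 11 genes above the range 3, Ighm, Lef1 and Spib, also lay at least 1 unit above all 3 total marrow samples, and 8 did not. Cd79a was at 11.45 in the Sca-1+ cKit- sample and averaged 12.02 in total marrow, and Blk was at 11.77 in the Sca-1+ cKit- sample and averaged 11.67 in total marrow. Early lymphoid genes had 7 of 21 above the range and none below. Rag1, a recombinase of receptor genes, measured 10.58 in the Sca-1+ cKit- sample, against 8.24, 8.68 and 9.12 in the stem-enriched samples. Ikzf3 and Ets1, lymphoid transcription factors, lay 2.96 and 2.21 units above, on 1 of 2 and 4 of 4 probe sets.

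MHC class II and conventional dendritic cell genes had 6 of 20 above the range and none below. H2-Aa, a class II chain, measured 16.62 in the Sca-1+ cKit- sample, against 14.29, 13.01 and 13.99 in the stem-enriched samples, on 4 of 4 probe sets. Itgax, the integrin CD11c, measured 12.32 in the Sca-1+ cKit- sample, against 10.17, 10.05 and 9.68 in the stem-enriched samples. MHC class I genes gave 0 of 15 above and 0 below, with a median difference of 0.27. GIMAP genes, GTPases of lymphocyte survival that cluster on chromosome 6, had 4 of 8 above. Gimap4 measured 14.32 in the Sca-1+ cKit- sample, against 10.17, 9.27 and 10.48 in the stem-enriched samples, 20.4-fold higher, with both probe sets above the range. Of 44 cytokine receptor genes on the chips 7 lay above the range and 2 below, Kit and Csf3r, the granulocyte colony-stimulating factor receptor.

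Markers of the remaining marrow cell types were mixed. Ptprc, the pan-leukocyte protein CD45, measured 15.35 in the Sca-1+ cKit- sample, against 13.79, 14.02 and 13.94 in the stem-enriched samples, with 1 of 2 probe sets above the range. Csf1r, the macrophage colony-stimulating factor receptor, was inside the range, and Adgre1, a macrophage surface receptor, at 10.39 in the Sca-1+ cKit- sample, lay 0.39 units above it. Of 18 cathepsin genes on the chips 5 lay above the range and 1, Ctsg, below. Besides Ctsw these were the endolysosomal Ctsb, Ctsl, Ctsh and Ctss, at 2.60, 2.55, 2.44 and 1.82 units, and the family was picked after its values were seen. Monocyte and macrophage genes had 4 of 27 above and 1 below, against 3.26% and 3.84% of all genes. Those above were Cd68, Lgals3, Ctss and Ly86, at 1.92, 1.88, 1.82 and 1.55 units. Among late granulocyte genes 0 of 25 lay above and 3 below, and Itgam, the integrin CD11b, was at or near the floor on both sides, at 7.34 in the Sca-1+ cKit- sample and 7.90, 7.57 and 7.34 in the stem-enriched samples. Cpa3, the mast cell carboxypeptidase, measured 11.69 in the Sca-1+ cKit- sample, against 11.71, 11.60 and 11.74 in the stem-enriched samples. Mcpt8, a basophil protease, measured 12.80 in the Sca-1+ cKit- sample, against 10.77, 10.53 and 11.61 in the stem-enriched samples. Of 21 mast cell, basophil and eosinophil genes on the chips 1 lay above the range and 1 below.

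Red cell, vessel and stromal markers were low or mixed. Of 26 erythroid genes 1 lay above the range and 3 below, against 3.26% and 3.84% of all genes. Slc4a1, the red cell anion exchanger, measured 9.66 in the Sca-1+ cKit- sample, against 8.69, 7.34 and 8.64 in the stem-enriched samples, while total marrow averaged 15.08. Cdh5, the cadherin that defines endothelium, measured 10.06 in the Sca-1+ cKit- sample, against 7.75, 7.98 and 8.71 in the stem-enriched samples, the only endothelial gene of 28 above the range. Tek and Esam, endothelial genes that stem cells also express, lay below the range at -1.01 and -1.19 units. Col1a1, the collagen chain that defines stromal cells, was at the floor in all 4 samples on its first probe set, and on the second measured 8.47 in the Sca-1+ cKit- sample against 8.62, 8.32 and 7.96 in the stem-enriched samples. Of 33 stromal genes 2 lay above and 6 below. Those above were Thy1, at 2.93 units, and Alpl. Alpl measured 8.89 in the Sca-1+ cKit- sample, against 7.34 in all 3 stem-enriched samples. Dcn, decorin, and Pdgfrb, a platelet-derived growth factor receptor, were at the floor in the Sca-1+ cKit- sample and lay below the range at distances of -2.26 and -2.62 units.

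Cell cycle genes were close to the stem-enriched level, with 0 of 48 above, 2 below and a median difference of -0.18. Of all genes 3.26% lay above and 3.84% below, so 2 of 48 is near the share of all genes. The pair below was Gins1 and Gins2, subunits of the replicative helicase, and Gins2 measured 10.36 in the Sca-1+ cKit- sample, against 13.41, 13.02 and 12.38 in the stem-enriched samples, on 1 of 2 probe sets. Of 18 cell cycle inhibitors, D cyclins and their kinases on the chips 3 lay above the range, Ccnd1, Ccnd3 and Btg1, and 1 below, Cdk6. Ccnd1 measured 13.01 in the Sca-1+ cKit- sample, against 11.21, 10.97 and 11.08 in the stem-enriched samples, on 3 of 3 probe sets. Ccnd1 and Ccnd3 encode D cyclins, which start the cell cycle, and Ccnd3 lay 1.35 units above the range on 1 of 3 probe sets. Cdk6, the kinase that pairs with D cyclins in blood progenitors, measured 14.58 in the Sca-1+ cKit- sample, against 16.73, 16.76 and 16.03 in the stem-enriched samples, on 1 of 2 probe sets. Ribosome biogenesis genes had 0 of 30 above and 2 below, with a median difference of -0.52, and ribosomal protein genes 0 of 31 above and 1 below, with a median difference of -0.36. Of 44 immediate early and heat shock genes, which can respond to cell handling, 4 lay above and 2 below. Tnfaip3, an inhibitor of NF-kappaB signalling, lay 1.56 units above, and Ier3, an early response gene, lay below it at -1.99 units.

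**Figure D3:**
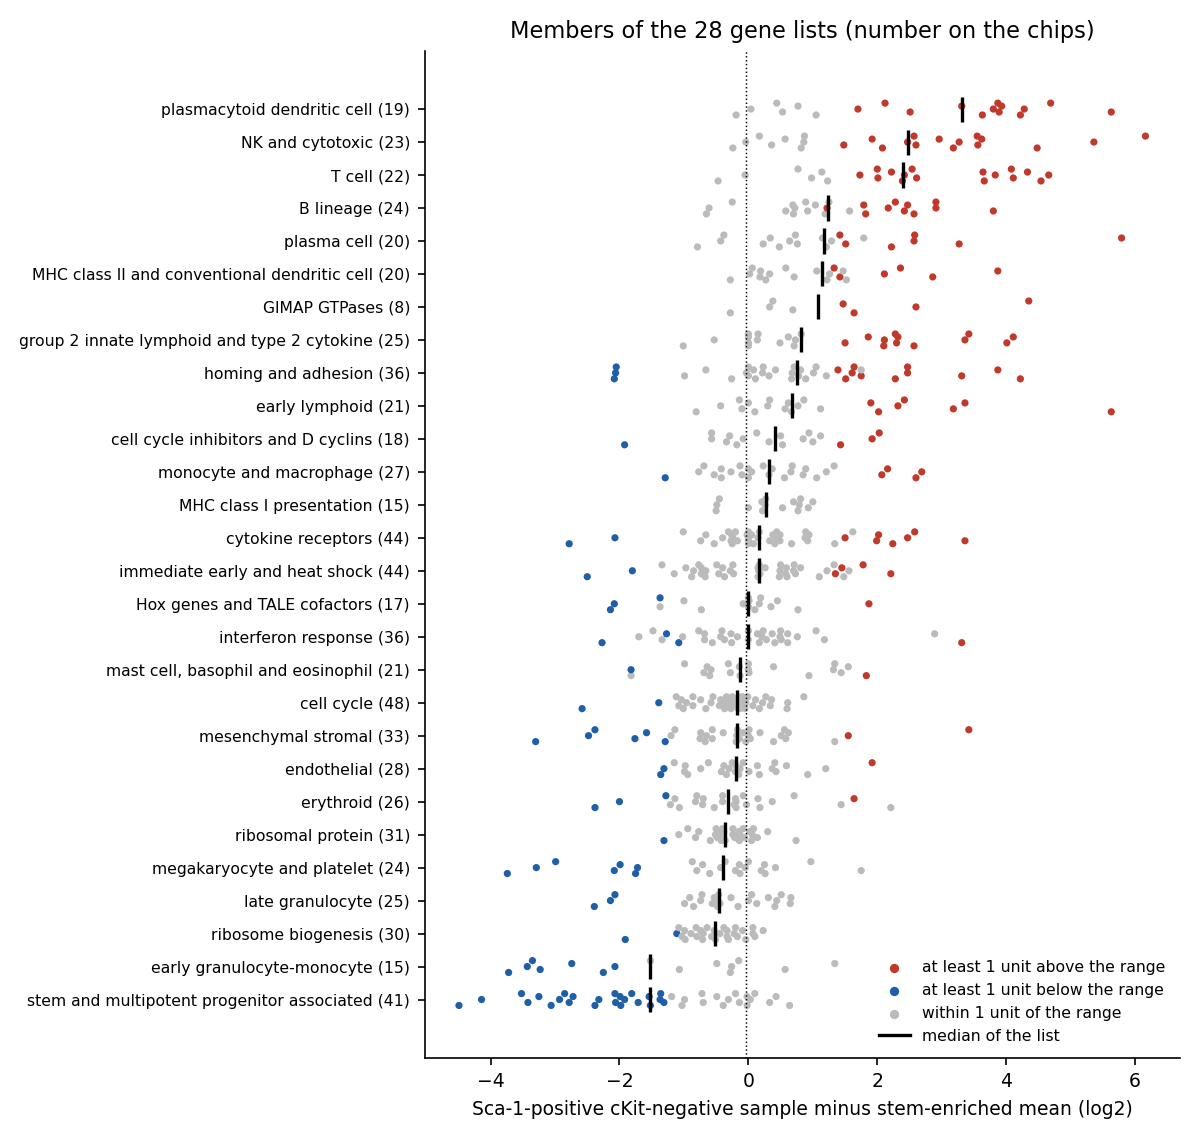
Difference between the Sca-1+ cKit- sample and the stem-enriched mean (log2) for each member of the 28 gene lists on the chips, with no filter, ordered by median; red and blue points lie at least 1 unit above or below the stem-enriched range, black bars are list medians, and the dotted line is the median of all genes (-0.04). The plasmacytoid dendritic cell list has the highest median (3.31), and the stem and progenitor and the early granulocyte and monocyte lists the lowest (both -1.52).

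Set beside all populations, the lists did not share 1 order. Medians here are over every member on the chips, with no filter. The median level of the plasmacytoid dendritic cell list was 13 in the Sca-1+ cKit- sample and 9.59 to 10.04 in the stem-enriched samples, while the other 12 samples lay between 9.64 and 11.19. T cell genes had a median of 11.67 in the Sca-1+ cKit- sample and 8.59 to 9.92 in the stem-enriched samples, with 10.16 to 10.87 in the Sca-1-negative cKit-negative samples. Natural killer and cytotoxic genes had a median of 10.75 in the Sca-1+ cKit- sample and 8.36 to 8.71 in the stem-enriched samples, and the 10.55 to 11.09 of the Sca-1-negative cKit-negative samples overlapped it. B lineage genes stood at 11.79 in the Sca-1+ cKit- sample and 10.13 to 10.78 in the stem-enriched samples, with 11.62 to 12.25 in total marrow around it. Stem and progenitor genes stood at 10.05 in the Sca-1+ cKit- sample and 12.09 to 12.30 in the stem-enriched samples, and at 10.18 to 10.30 in the Sca-1-negative cKit-negative samples.

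**Figure D4:**
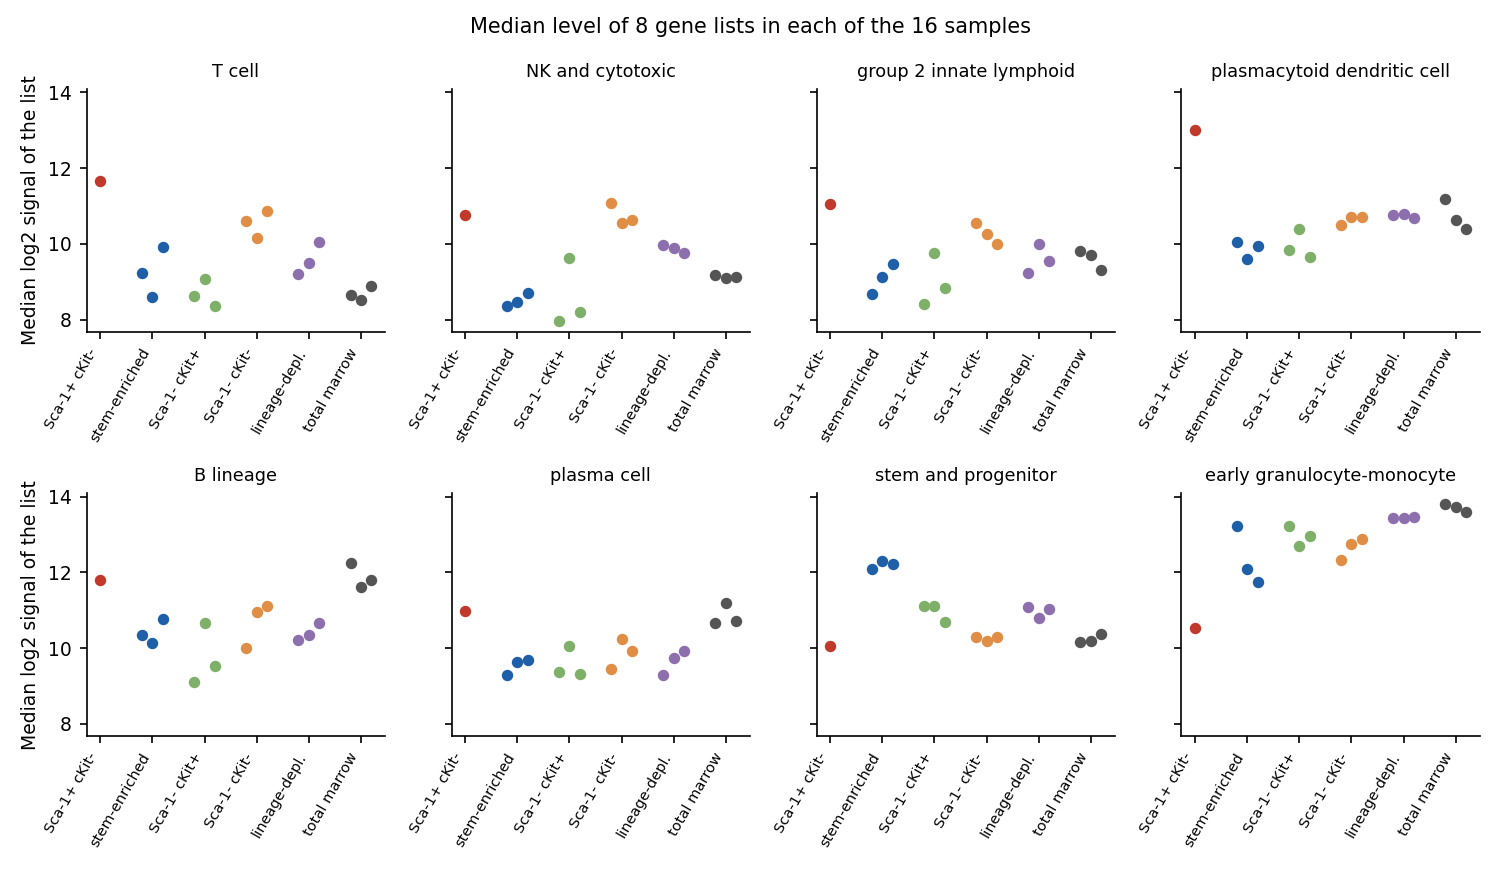
Median log2 signal of the members of 8 gene lists on the chips in each of the 16 samples, 1 point per sample, with the Sca-1+ cKit- sample at the left and the stem-enriched samples next to it. The plasmacytoid dendritic cell list is at 13 in the Sca-1+ cKit- sample, above every other sample, and the stem and progenitor list is at 10.05, below the 3 stem-enriched samples at 12.09 to 12.30.

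The genes outside the stem-enriched range were also set beside the 3 total marrow samples. Of the 513 genes above the range, 252 lay at least 1 unit above those samples too. Of the 623 genes below the range, 252 lay at least 1 unit below those samples. These genes were picked by their distance from the stem-enriched samples, and the same share over all measured genes was not counted. Total marrow shared chip lot and scan day with the Sca-1+ cKit- sample, and the part of the run in these counts was not tested. For 116 of the 513 genes all 3 total marrow samples were themselves at least 1 unit above the stem-enriched range. Set against all 15 other samples, 118 measured genes of the Sca-1+ cKit- sample lay at least 1 unit above every one. Another 95 lay at least 1 unit below. The filter used only the Sca-1+ cKit- and stem-enriched signals, and no counts without it are given here. After Cd4, the genes farthest above all 15 were Icos, Ccr9 and Igha, at distances of 3.40, 3.14 and 3.04 units.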

How the data were processed

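Per the labels, total RNA of each of the 16 samples was prepared with RNeasy, labelled with biotin and hybridised to 1 Affymetrix array of each chip type, A and B. The authors deposited a table of intensity values per chip type. Per the submitters' processing notes the signals came from MAS5; its version is not given in these sources. In the deposited tables the 2% trimmed mean of each array was 1500.1 to 1500.7. Other deposited instrument records gave the chip lots and scan days. No depth exists for arrays, and their number limits the precision.

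Probe sets were named through the platform annotation, with symbols updated through RefSeq. Of 45037 probe sets, the 34945 with a single symbol were used for named genes, and the 932 with several and 9160 with none were not. Signals were floored at the 25th percentile of the chip type (162.3 on A, 268.1 on B) and taken to log2. A probe set was measured where the Sca-1+ cKit- signal or the median of the 3 stem-enriched signals passed the chip type's median over 16 arrays (535.3 on A, 843.8 on B), and each gene is its brightest measured probe set. Fold changes are differences of log2 values from the stem-enriched mean, and understate the change where a value is at the floor. Genes named by rule are the 20 farthest above and below the range and up to 4 members of each list outside it. Kit and fixed defining markers were also named. Other genes, both outside and within the range, were named with no fixed rule. The samples, members and 28 lists were chosen with earlier results of these data known. The rule was tested on simulated data. Python 3.11.15, NumPy 2.4.6 and pandas 2.3.3 were used, with figures from matplotlib 3.10.9. Start-site windows come from RefSeq on GRCm38.p6. Alternatives changed the floor, filter, normalization, probe set rule and distance, and left out each stem-enriched sample.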

Additional observations from a re-analysis of the deposited data

How the results depend on the processing

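No paired analysis was possible because the single sample carries no replicate number shared with the stem-enriched samples and no test was made. Genes above the range numbered 357 to 593 under another floor, filter, normalization or probe set rule, against 513 as reported. Genes below numbered 303 with a floor at the 50th percentile and 290 with a filter at the 75th percentile, which tests 7553 genes, against 623; the other settings of that kind gave 567 to 698. At a distance of 2 log2 units the counts were 142 above and 106 below. The share of genes outside the range that lay above it was 45.2% as reported, 56.2% with the higher floor and 55.2% with the stricter filter. With quantile normalization 492 of the 513 and 556 of the 623 genes were called again, and the median difference over all genes was -0.02, against -0.04. With the floor at the 50th percentile only 382 of the 513 and 301 of the 623 were called again. With the filter at the 75th percentile these counts were 345 and 286. Without 1 stem-enriched sample the counts were 682 to 741 above and 802 to 893 below, which a narrower range gives by construction. Of the named genes outside the range only Irf4 turned its direction, to -1.12 with no floor, since another probe set becomes the brightest. Across the settings 126 checks of named genes moved without turning, and 1007 stayed the same. The median of the stromal list turned from -0.56 to 0.48 with the filter at the 75th percentile, which tests fewer genes. For list medians 57 checks moved without turning, and 222 stayed the same. Stem-enriched samples of the same chip lot or scan day were not compared, since none shared them with the Sca-1+ cKit- sample. At low signal the floor limits what can be seen: 41 genes above had all 3 stem-enriched samples at the floor, and 125 genes below had the Sca-1+ cKit- sample there.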

Other observations

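Several genes outside the lists also lay far from the stem-enriched range, and were picked after their values were seen. Epha2, a receptor of ephrins, measured 12.73 in the Sca-1+ cKit- sample, against 7.34, 7.60 and 7.34 in the stem-enriched samples, at least 39.4-fold higher, and lay 2.73 units above all 15 other samples. Pltp, the phospholipid transfer protein, measured 12.89 in the Sca-1+ cKit- sample, against 8.37, 8.87 and 9.47 in the stem-enriched samples, with both probe sets above the range. Lefty1, a secreted antagonist of the TGF-beta family, measured 11.05 in the Sca-1+ cKit- sample, against 7.34, 7.52 and 7.34 in the stem-enriched samples. Havcr1, a T cell immunoglobulin and mucin receptor, measured 13.53 in the Sca-1+ cKit- sample, against 8.16, 10.89 and 8.94 in the stem-enriched samples. Foxp3, the factor of regulatory T cells, measured 9.42 in the Sca-1+ cKit- sample, against 8.35, 7.92 and 8.01 in the stem-enriched samples, just past the threshold at 1.06 units.

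The same rule was applied to each of the other 12 samples against the stem-enriched range. The filter for measured genes used the Sca-1+ cKit- and stem-enriched signals and not those of the other 12 samples. Genes high only in those samples could therefore be missed, and the counts are not like for like. The Sca-1+ cKit- sample had 513 genes above and 623 below, the 3 Sca-1-negative cKit-negative samples 384 to 579 above and 535 to 831 below, and the 3 total marrow samples 540 to 775 above and 714 to 1059 below. Sca-1-negative cKit-positive sample 2 had 879 above and 1762 below, against 116 to 131 above and 535 to 594 below in the other 2 samples of that population. Its arrays also stood apart. On chip type A its median array signal was 877.4, against 474.2 and 539.0 in the other 2. Its log2 ratio of 3′ to 5′ Gapdh there was 0.38, against 3.18 and 2.68. This sample is among the 15 others in every such comparison, and its part in them was not tested. Where genes had several probe sets, 82 of 161 genes above the range had at least 2 probe sets above it and 3 had 1 below it, and 47 of 178 genes below had at least 2 below.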
